A study of Mus musculus with 23 samples.

Results

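Dioctyl maleate (DOM) and dioctyl succinate (DOS) are proposed plasticizers with the same octyl ester arms. They differ in the core that joins those arms, which holds a carbon-carbon double bond in the maleate and is saturated in the succinate. This pair was compared directly in TM4 cells, a line of immortalized Sertoli cells from the mouse testis, with the arrays labelled DOM (replicates 1 to 4) and DOS (replicates 1, 3 and 4), which are 7 of the 23 arrays of the series. After 250000 cells had been seeded per well they were treated for 48 hr with 100 μM of either compound in 1% DMSO, and the 4 vehicle cultures received the 1% DMSO alone. No vehicle array entered the comparison. Only 1 dose, 1 time point and 1 cell line were measured, and although the study calls the replicates biological, it does not say how the cultures were kept apart, so the p-values measure the spread between these samples. The study left 1 DOS array (replicate 2) out for high background.

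Several of the gene groups below are read as outputs of known regulators. NRF2 is a transcription factor that KEAP1 holds in check. When reactive (electrophilic) compounds modify KEAP1, NRF2 binds antioxidant response elements and raises genes for glutathione synthesis, NADPH supply and conjugation of foreign compounds. SREBP factors raise cholesterol and fatty acid synthesis when membrane sterol is low, PPAR receptors raise genes of fatty acid use, ATF4 raises genes of amino acid supply during the integrated stress response, and E2F factors raise the genes of DNA replication as cells enter S phase. Sertoli cells nurse the germ cells of the testis and supply them with lactate.

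The 75th percentile of the processed signal was 257.7 to 350.7 on the DOM arrays and 218.1 to 256.4 on the DOS arrays, and 44.3% to 50.03% of the spots were well above background. Precision is limited by how many arrays there are, since intensities have no sequencing depth. DOM replicates 3 and 4 and DOS replicate 3 each had 2 or 3 of 10 extraction quality measures out of range. Of 24 Sertoli cell markers 14 could be tested. Wt1, Amh, Amhr2, Fshr, Gdnf and Cldn11, which define Sertoli cells in the testis, were not well above background on any of the 7 arrays. No germ cell marker could be tested, and the Leydig cell enzymes Cyp11a1 and Hsd3b1 were not well above background on any array. The Leydig cell enzyme Cyp17a1 was well above background on all 7 arrays. Fewer cells of a kind and less RNA per cell cannot be told apart in such cultures.

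The 2 compounds gave different transcript profiles. Of 11928 genes tested, 1611 differed by more than 1.5-fold at an adjusted p below 0.05 (limma, Benjamini-Hochberg adjustment), which is 13.5%, and these are the genes described as called. With DOM 721 genes were higher (6.04%) and 890 were lower (7.46%), and 586 differed by more than 2-fold. The median difference over all tested genes, DOM minus DOS on the log2 scale, was -0.01. Of the called genes 1585 had every DOM array on one side of every DOS array, against 38.6% of all tested genes. For 5890 genes (49.4%) the 95% interval of the difference lay wholly within 1.5-fold either way, so for these a larger difference between the compounds lay outside the interval. The count of higher genes rested on single arrays: it was 459 without DOS replicate 1 and 472 without DOS replicate 4. Without the 3 arrays with measures out of range, which leaves 2 against 2, 199 genes were called.

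**Figure D1:**
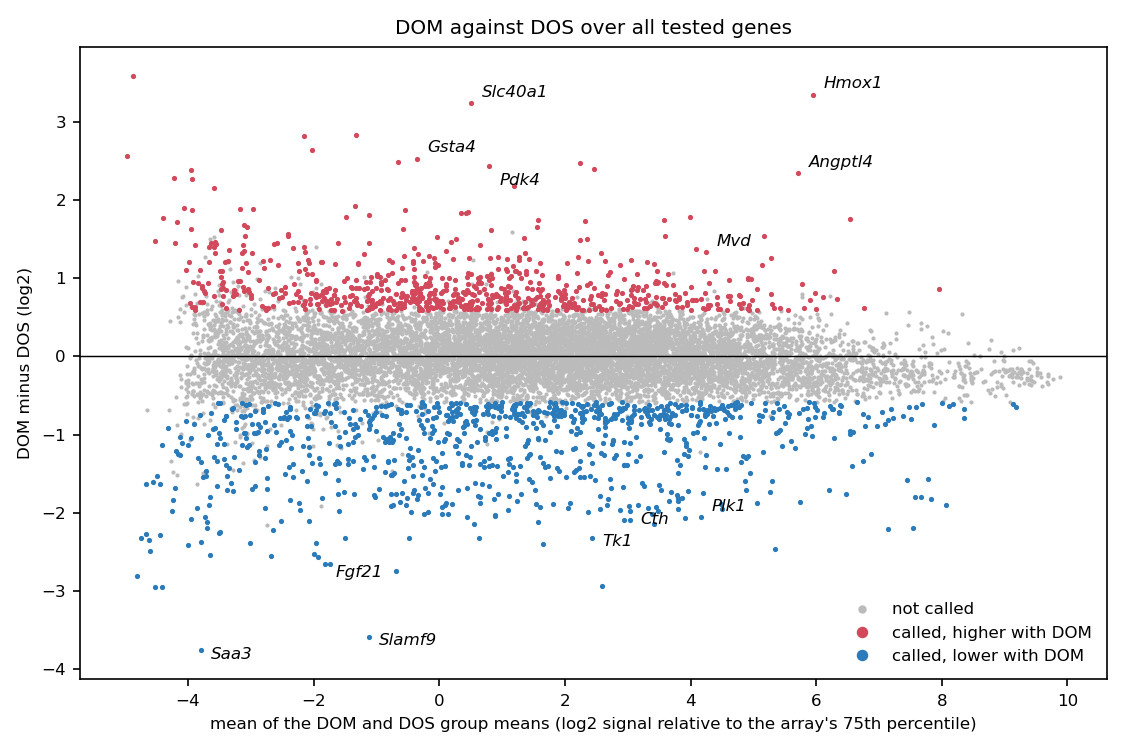
Each point is one of the 11928 tested genes. The x axis is the mean of the DOM and DOS levels (log2 signal relative to the array's 75th percentile) and the y axis is the log2 difference, DOM minus DOS. Red points are the 721 called genes higher with DOM and blue points the 890 lower. Hmox1 stands at 3.35 among the brighter genes and Slamf9 at -3.59.

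Taken over all 55619 probes measured on every array, dim ones included, the distance between the group means was 112.3, and 4 of the 35 ways of labelling the arrays gave a distance as large (exact permutation test, p = 0.114, where the smallest possible is 0.0286). Over the 22471 probes well above background on all 7 arrays the distance was 66.2, and no other labelling gave as large a distance (exact permutation test, p = 0.0286). On those probes the correlation between pairs of arrays was 0.9915 to 0.9957 within DOM, 0.9933 to 0.9964 within DOS and 0.9769 to 0.9914 between the compounds.

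The gene that rose most with DOM among those measured on all arrays was Hmox1, heme oxygenase 1, which breaks down heme and is a classic NRF2 target. Its level, the log2 signal relative to the array's 75th percentile, was 7.84, 7.63, 7.23 and 7.78 on the DOM arrays and 4.20, 4.38 and 4.25 on the DOS arrays. The DOM arrays all lay far above the DOS arrays, and the DOS arrays lay beside the vehicle arrays, which ranged from 4.33 to 4.52. The difference was 3.35 ± 0.16 (SE), or 10.2-fold, with an adjusted p of 0.000121.

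Slc40a1, which encodes the iron exporter ferroportin, followed with a difference of 3.23 ± 0.37. Its levels were 1.74, 2.14, 2.12 and 2.51 with DOM and -2.08, -0.85 and -0.39 with DOS. The groups did not overlap, although the DOS arrays were widely spread. The next were Arrdc3, an arrestin-domain adaptor (2.83), Zfp185, an actin-associated protein (2.82), Gsta4, the glutathione transferase for lipid peroxidation products (2.53), Slc43a2, a carrier of neutral amino acids (2.48), the histone gene H2ac18 (2.47), Pdk4, Mgp and Angptl4. Each of these 10 genes had adjusted p-values of 0.00354 or lower.

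Of the genes measured on all arrays Slamf9, a receptor of the SLAM family, fell most. Its levels were -2.67, -3.41, -2.02 and -3.57 with DOM and 1.05, 0.48 and 0.49 with DOS, a 12-fold difference, and no DOM array came near a DOS array. It was followed by the linker histone genes H1f5 (-2.94) and H1f1 (-2.75), the stress-induced hormone gene Fgf21 (-2.66), AF067061 (-2.65) and Gm20767 (-2.53). The core histone genes H2ac4, H3c14 and H3c11 (-2.46 to -2.39) and Tk1, thymidine kinase of the salvage pathway (-2.32), completed the 10.

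**Figure D2:**
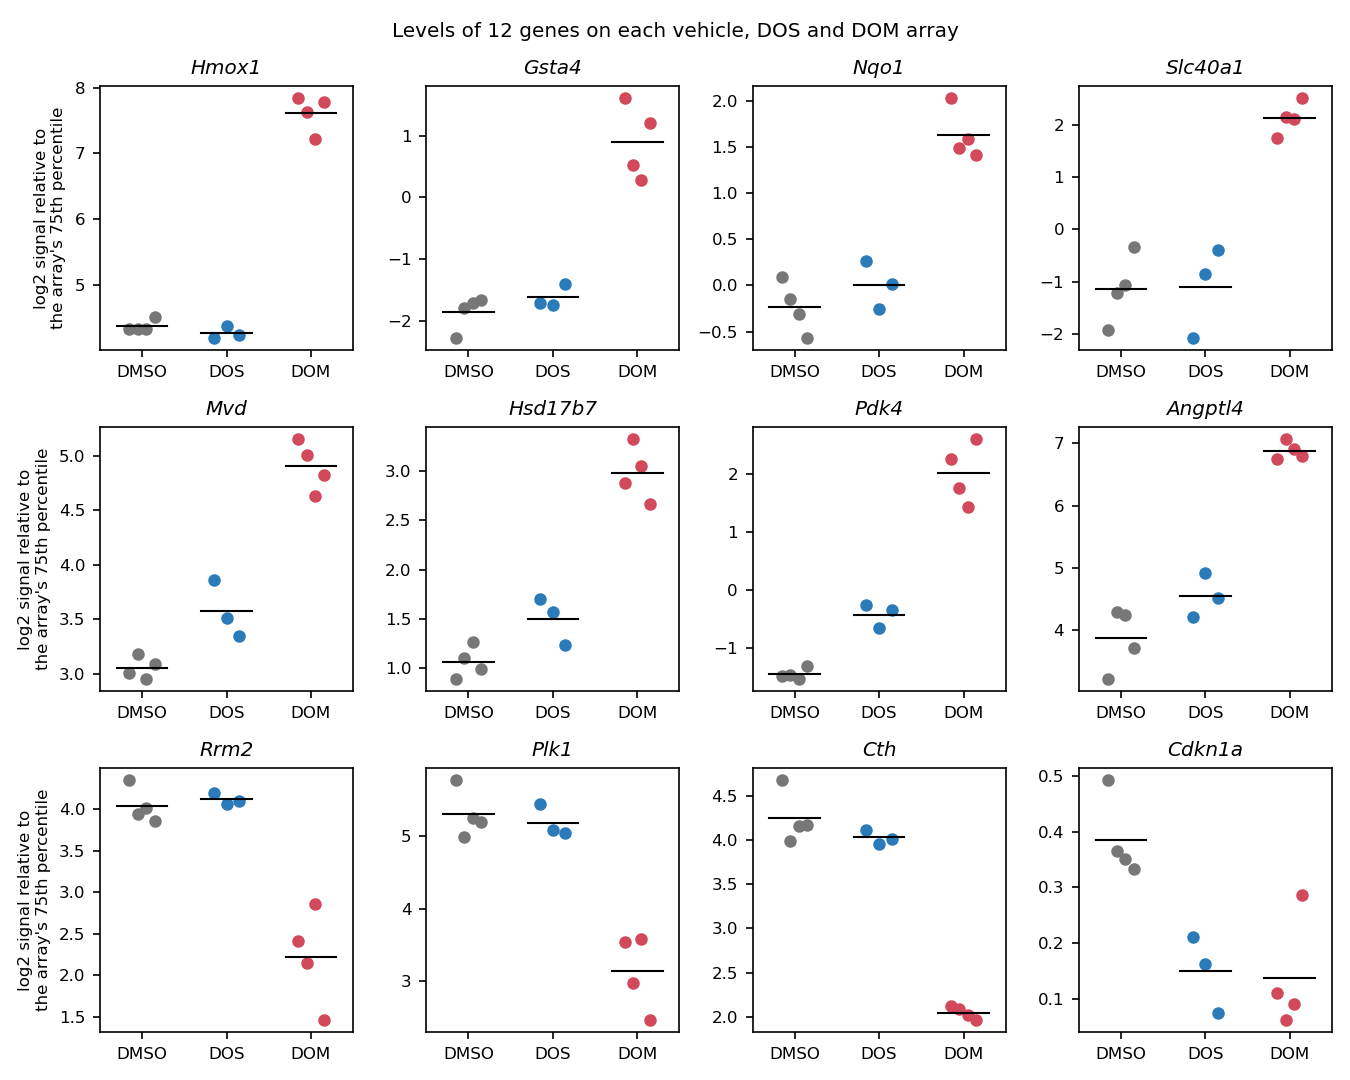
Each panel shows 1 gene and each point 1 array, with the mean of each group as a bar. The y axis is the log2 signal relative to the array's 75th percentile and has its own range in each panel. In 11 panels every DOM point lies beyond every DOS point, and in the panel of Cdkn1a (difference -0.01) the DOM and DOS points overlap.

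The vehicle arrays, which took no part in the comparison, were used to place each called gene. The DMSO mean was nearer to the DOS mean for 1575 of the 1611 called genes and nearer to the DOM mean for 36. These genes were picked for the gap between DOM and DOS, and no such share over all tested genes is given. On a scale where the DOS mean is 0 and the DOM mean is 1, the median position of DMSO was -0.05. The median absolute difference from DMSO over the called genes was 0.95 for DOM and 0.13 for DOS, 2 comparisons that share the 4 vehicle arrays. For 1071 called genes the 95% interval of DOS minus DMSO lay within 1.5-fold.

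Some genes also stood away from vehicle with DOS. Examples follow here and with the lists below, and their intervals are not adjusted for the number of genes. After correction the study found no gene changed by DOS. Pdk4, the kinase that shuts glucose carbon out of the mitochondria, was at -0.26, -0.65 and -0.35 on the DOS arrays and at -1.54 to -1.30 on the vehicle arrays, and at 1.43 to 2.60 with DOM. The DOS values thus lay between the others without overlap, with DOS minus DMSO at 1.02 (95% interval 0.75 to 1.29). For Mgp, a matrix protein that inhibits calcification, DOS minus DMSO was 1.1 (0.28 to 1.92) beside a DOM minus DOS difference of 2.39. For Saa3, an acute phase protein, it was -1.54 (-2.0 to -1.09), and the level was lower still with DOM.

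Genes of the NRF2 programme were higher with DOM. Of 31 tested members 14 rose and none fell, with a median difference of 0.46. Among the antioxidant and NADPH enzymes 10 of 21 rose. Beside Hmox1 these included Nqo1, a quinone reductase (1.62 ± 0.18, 3.07-fold), Pgd, the NADPH-producing step of the pentose phosphate pathway (1.54 ± 0.13), and Gclm, the modifier subunit of the first enzyme of glutathione synthesis (1.25 ± 0.20). Pgd was at 5.82 to 6.10 with DOM, 4.28 to 4.59 with DOS and 4.46 to 4.62 with vehicle, so that DOS and vehicle overlapped and DOM stood clear of both. Srxn1, Txnrd1 and the export pumps Abcc1 and Abcc4, chosen after their values were seen, were higher by 1.0, 0.62, 1.0 and 1.1. For Abcc4 the vehicle mean was nearer to DOM, with DOM minus DMSO at 0.43 and DOS minus DMSO at -0.67 (95% interval -0.95 to -0.39). With slide as a block 13 members were higher and 1 was lower, and without DOS replicate 3 these counts were 11 and 1. The call of Txnrd1, which reduces thioredoxin, was lost without DOS replicate 3.

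Other parts of the programme did not pass the test. Gclc, the catalytic partner of Gclm, differed by 0.28 (95% interval 0.01 to 0.55), and the cystine importer gene Slc7a11 by -0.09 (-0.54 to 0.37). The ferritin light chain gene Ftl1 differed by 0.08 (-0.18 to 0.35). The transcripts of the regulators themselves moved little, with Nfe2l2, which encodes NRF2, at -0.22 (-0.45 to 0.00) and Keap1 at 0.21 (-0.17 to 0.58). The intervals of these 5 genes lay within 1.5-fold, that of Keap1 only just.

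Glutathione transferases join glutathione to electrophiles. Of 17 tested members 6 rose and 1 fell, with a median of 0.51. Gsta4, of the alpha class, was at 1.61, 0.52, 0.29 and 1.21 with DOM and at -1.71, -1.75 and -1.40 with DOS. The groups were far apart, and the vehicle arrays at -2.29 to -1.66 overlapped with DOS and not with DOM. For 16 of the 17 members the DOS mean lay above DMSO. Over the 17 the median difference from DMSO was 0.24 with DOS and 0.69 with DOM, where both use the same vehicle arrays. Of 5 members of the mu class 3 rose, Gstm1 by 1.78 ± 0.21 and Gstm4 by 1.06 ± 0.14 among them. The mu genes are alike in sequence, so probes may not tell them fully apart. The microsomal Mgst1 rose by 1.5 ± 0.14. Gstt1, of the theta class, fell by 0.74, with an adjusted p of 0.0467 and overlapping groups, and its call was lost on leaving out any of 5 single arrays (DOM replicates 1, 2 and 3 and DOS replicates 3 and 4).

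The core of the antioxidant response element, TGACNNNGC on either strand, was searched in the RefSeq promoters (GRCm38.p6), each a short stretch that lies mostly before the start site. It occurred in 12.4% of 32851 promoters and in 14% of 27025 genes. Of the 14 higher NRF2 genes 11 had a promoter in the table and 6 of these held the core (Abcc4, Gclm, Me1, Pgd, Srxn1 and Txnrd1), against 3 of 14 members that were not called. Among the glutathione transferases with a promoter it was held by 1 of 5 higher members (Mgst1), by 0 of 1 lower and by 1 of 10 uncalled members (Gstm5). A match is a run of letters and not a measured binding site. Hmox1 had no entry in the table. Stretches of 3 promoters are shown to let the cores be compared beside the values above, with the core in capitals, here on the opposite strand in all 3, and Txnrd1 was picked after its values were seen.
Gclm, plus strand of chr3:122245393-122245461: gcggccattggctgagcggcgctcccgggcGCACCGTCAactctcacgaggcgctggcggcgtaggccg
Mgst1, plus strand of chr6:138140441-138140509: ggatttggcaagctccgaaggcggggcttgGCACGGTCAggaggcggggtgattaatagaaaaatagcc
Txnrd1, plus strand of chr10:82859084-82859152: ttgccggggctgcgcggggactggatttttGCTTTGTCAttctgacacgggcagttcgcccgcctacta
The first base of the core stood 134 bases before the start site in Gclm, 56 before it in Mgst1 and 92 before it in Txnrd1.

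Cholesterol synthesis genes were higher with DOM than with DOS. Of 21 tested enzymes 10 rose and none fell, and the median difference was 0.60. The mevalonate arm makes the isoprenoid units, and 2 of its 8 enzymes rose. Mvd, the decarboxylase of the arm, was at 5.16, 5.01, 4.64 and 4.82 with DOM and at 3.86, 3.51 and 3.35 with DOS. DOM and DOS did not overlap, and all 3 DOS arrays lay above the vehicle arrays (2.95 to 3.18). The difference of Mvd was 1.33 ± 0.17, and DOS minus DMSO was 0.52 (95% interval 0.21 to 0.82).

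From squalene to cholesterol 8 of 13 enzymes rose, led by Hsd17b7 (1.48 ± 0.18), Tm7sf2 (1.37 ± 0.18) and Nsdhl (0.99 ± 0.16), which reduce or demethylate sterol intermediates. Lbr, whose product is both a sterol reductase and a nuclear membrane protein, was the 1 enzyme below 0, at -0.38. With DOS the mean lay above DMSO for all 21 enzymes, by a median of 0.35, and with DOM by a median of 1.00, where both values use the same vehicle arrays.

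Of 15 genes regulated by SREBP outside the pathway 5 rose and none fell, with a median of 0.41. They included Elovl6 (1.21) and Fasn (0.91) of fatty acid synthesis, the sterol carrier gene Stard4 (1.09), whose call was lost without DOS replicate 4, and Insig1 (0.79), the feedback brake on SREBP. Srebf2, the SREBP of cholesterol synthesis, differed by 0.41 (95% interval 0.08 to 0.73) and was not called. The sterol regulatory element TCACNCCAC occurred in 1.24% of promoters, and in 1 of 8 higher and 0 of 8 uncalled cholesterol enzymes with a promoter. The match was in Hmgcs1, which condenses the first branched intermediate of the pathway and was higher by 0.72. Its promoter, picked after the values were seen, is shown with the element in capitals 137 bases before the start site.
Hmgcs1, plus strand of chr13:119690184-119690252: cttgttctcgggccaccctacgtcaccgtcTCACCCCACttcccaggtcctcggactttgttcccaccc

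Of 21 PPAR target genes 5 rose and none fell, with a median of 0.31 (0.19 with no filter on dim probes). Angptl4, a secreted inhibitor of lipoprotein lipase, was at 6.74, 7.07, 6.91 and 6.80 with DOM and at 4.21, 4.91 and 4.51 with DOS, a difference of 2.34 ± 0.17. The vehicle arrays, at 3.21 to 4.30, overlapped with DOS through its lowest array (4.21) and not with DOM. The DOS arrays at 4.91 and 4.51 lay above all vehicle arrays. DOS minus DMSO was 0.68 (unadjusted interval 0.04 to 1.31). Pdk4 rose by 2.43 ± 0.26 and Cpt1a, the gate of fatty acid entry into mitochondria, by 1.74 ± 0.17. The uncoupling protein genes Ucp3 (0.64) and Ucp2 (0.59) rose less, and Ucp2 had an adjusted p of 0.0563 with replicate number as a block. The calls of both rested on single arrays, that of Ucp3 being lost without DOS replicate 4 and that of Ucp2 without any of 5 arrays (DOM replicates 1, 2 and 4 and DOS replicates 3 and 4). Aldh3a2, which oxidizes fatty aldehydes, differed least, by -0.03 (-0.33 to 0.26). The list had 3 higher members without DOS replicate 4, and 1 lower member without DOM replicate 4.

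Genes of the cell cycle were lower with DOM. All 24 tested mitosis genes lay below 0, by 1.57 to 2.15, and 23 fell, with a median of -1.85. Plk1, a kinase that drives mitotic entry, was at 3.54, 2.97, 3.58 and 2.46 with DOM and 5.45, 5.08 and 5.04 with DOS. Every DOM array was below every DOS array, and the vehicle arrays at 4.99 to 5.78 overlapped with DOS. Cenpa, the centromere histone, fell by 2.14, the checkpoint kinase gene Bub1b by 2.03, and the proliferation marker Mki67, picked after its values were seen, by 1.71. Aurkb, a kinase of chromosome segregation, was not called, with DOM levels from -5.6 to -1.95, DOS levels from -1.88 to -1.34 and an adjusted p of 0.0682. It was called with slide as a block (-3.04, adjusted p = 0.00973), with normexp background correction (-0.75), with all 6 groups in 1 fit, with a variance trend and without DOM replicate 3.

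DNA replication genes were lower as well. Of 41 tested members 31 fell and none rose, with a median of -0.87. Of the 17 genes of helicase and licensing 13 fell, Gins1 by 1.78 ± 0.23 among them. Of the 24 genes of polymerases, clamp and nucleotide supply 18 fell. Rrm2, the regulated subunit of ribonucleotide reductase, was at 2.42, 2.15, 2.85 and 1.45 with DOM and at 4.19, 4.06 and 4.10 with DOS. The DOM arrays were spread over more than a doubling, and all lay below DOS and vehicle (3.86 to 4.35). Pole2, a subunit of the leading-strand polymerase, fell by 1.75 ± 0.21 and the clamp gene Pcna, picked after its values were seen, by 0.94. Gins3, a partner of Gins1 in the helicase, was at 6.20 to 6.43 with DOM and 6.37 to 6.42 with DOS and differed by -0.10 (95% interval -0.34 to 0.13), and that sign turned with quantile normalization (0.10).

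The E2F site, TTTGGCGC or TTTCCCGC on either strand, occurred in 1.56% of promoters and 1.80% of genes. It was found in 10 of the 26 lower replication genes with a promoter and in 1 of 7 that were not called, which was Gins3. The promoters of Cdc6, which loads the helicase at origins and was lower by 1.44, and of Gins3 are shown because both hold the same letters while only the first gene was called. Cdc6 was picked after its values were seen, and its call was lost without DOS replicate 1 or 4 or DOM replicate 2.
Cdc6, plus strand of chr11:98907983-98908050: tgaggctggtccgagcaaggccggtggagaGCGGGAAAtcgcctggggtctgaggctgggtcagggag
Gins3, plus strand of chr8:95633488-95633555: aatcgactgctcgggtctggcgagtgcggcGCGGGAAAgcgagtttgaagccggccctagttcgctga
The site, in capitals and on the opposite strand, stood 138 bases before the start in Cdc6 and 41 before it in Gins3.

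Clustered histone genes package newly made DNA, and this group was added after its values were seen. Of 38 tested genes 29 fell and 4 rose, with a median of -1.78. Among those that fell, H2ac21, H2bc3, H3c1 and H3c8 were well above background on 1 of 4 DOM arrays and H4c17 on 3. These passed the filter through DOS, so the sizes of their falls are uncertain. H1f5 was at 1.26, 1.25, 2.01 and 0.00 with DOM and 4.49, 3.89 and 3.82 with DOS, with no overlap. The 4 that rose were H3c15 (2.64), H2ac18 (2.47), H2bc4 (1.73) and H1f2 (1.35). H3c15 was well above background on 2 of 3 DOS arrays, so its size is uncertain, and with normexp background correction it was 1.15. H2ac18 was at 3.14 to 3.87 with DOM and 0.41 to 1.61 with DOS, and the groups did not overlap. Histone genes are nearly identical to each other and probes may read more than 1 of them, so the assignment to single genes is uncertain.

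Genes of the ATF4 programme were lower with DOM. Of 23 tested members 12 fell and none rose, with a median of -0.62. With quantile normalization 7 were lower and 1 was higher, with a median of -0.38, and with slide as a block 9 were lower and 1 was higher. Cth, which makes cysteine from cystathionine, was at 2.13, 2.08, 2.02 and 1.96 with DOM, 4.12, 3.95 and 4.01 with DOS and 3.98 to 4.68 with vehicle. The replicates of both compounds were tight and the groups lay far apart, with a difference of -1.98 ± 0.10. Fgf21 was lower by 2.66 ± 0.21, the amino acid carrier gene Slc7a5 by 1.05 and the stress factor Atf3 by 1.07. Atf4 itself was lower by 0.61 ± 0.11, just past the 1.5-fold limit, and fell short of it with quantile normalization (-0.37), with replicate number as a block (-0.58), without DOS replicate 1 and without DOM replicate 2. Ddit3, which encodes CHOP, differed by -0.39 (95% interval -0.67 to -0.12) and was not called. Without DOS replicate 4 the list had 8 lower members.

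Enzymes of serine and folate metabolism, which supply carbon units for nucleotides, were lower in part. Of 19 tested 9 fell and none rose, with a median of -0.55. Shmt2, the mitochondrial enzyme that takes a carbon from serine, was at 3.56 to 3.85 with DOM, 5.12 to 5.19 with DOS and 5.34 to 5.6 with vehicle. The 3 groups did not overlap, with DOM minus DOS at -1.44 ± 0.11. Psat1 (-1.25) and Psph (-1.17) of serine synthesis and Shmt1 (-1.03) fell too. The list had 6 lower members without DOS replicate 1. Of 20 cytosolic aminoacyl-tRNA synthetases, which charge tRNAs with amino acids, 7 fell by 0.59 to 0.72, with Sars (-0.72), Lars (-0.71), Nars (-0.69) and Vars (-0.68) in front, and the median was -0.46. This count was 4 without DOS replicate 4, 2 with quantile normalization, 3 with normexp background correction and 0 with no filter on dim probes. With quantile normalization the calls of Sars and Lars were lost. The call of Lars was lost without DOS replicate 1 or 4 or DOM replicate 2, and its adjusted p was 0.0559 with replicate number as a block.

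Of 22 interferon-induced genes 9 fell and 1 rose, with a median of -0.39. Cxcl10, a chemokine that attracts T cells, was at -0.43, -0.93, -0.44 and -1.15 with DOM and 1.25, 0.76 and 1.46 with DOS, and the groups did not overlap. Ifi44 (-1.46), Rsad2 (-1.21) and Oasl2 (-1.07), which are antiviral, fell too. With DOS the means of these 3 lay below vehicle, by 0.74, 0.42 and 0.46. Over the whole list 11 of the 22 DOS means lay above vehicle, and the median DOS minus DMSO was 0.004. The call of Rsad2 was lost with normexp background correction (-0.48). The member that rose was Stat2 (0.63), a signal carrier of the interferon receptor, whose value was 0.56 with replicate number as a block, 0.58 with slide as a block and 0.55 with normexp background correction, all short of the limit, and whose call was lost without DOS replicate 1 or 4 or DOM replicate 2.

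Among 13 inflammatory secreted genes 3 fell and 2 rose, while 7.46% of all tested genes were lower and 6.04% higher. On all 4 DOM arrays Saa3 failed to rise well above background, and its level of -2.25, -2.01 and -1.49 with DOS lay under the vehicle range of -0.61 to -0.03. Spp1, or osteopontin, fell by 1.66 ± 0.35 and the alarmin Il33 by 1.38 ± 0.35, the latter losing its call without DOS replicate 1 or 4 or DOM replicate 2. Ptgs2, the inducible prostaglandin synthase, rose by 1.39 ± 0.20 and the neutrophil chemokine Cxcl1 by 1.33 ± 0.25. Of 6 macrophage markers on the array 3 were tested and none was called, and Adgre1, Ptprc and Lyz2 were not well above background on any of the 7 arrays. The tested markers included Csf1r (-0.17) and Cd14 (0.34), both well above background on all 7 arrays. The summed level of the macrophage markers, on the linear scale relative to the 75th percentile, was 16.0 to 22.1 with DOM and 14.8 to 18.7 with DOS.

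Of 20 extracellular matrix genes 6 rose and none fell, with a median of 0.36. The median was 0.09 without DOS replicate 1, 0.54 without DOM replicate 1 and 0.57 without DOS replicate 3. With normexp background correction, with all 6 groups in 1 fit and with a variance trend 1 member was lower. The leading member was Mgp, at 3.13, 3.67, 3.51 and 4.30 with DOM, 0.54, 1.46 and 1.78 with DOS and -0.70 to 0.49 with vehicle. Thbs2 (1.75 ± 0.33) and Thbs1 (1.09 ± 0.29), adhesion proteins secreted by many cells, and the collagens Col5a2 (0.79), Col4a2 (0.60) and Col4a1 (0.59) were the others. For Thbs2 the vehicle arrays ran from -2.32 to 5.67, so its place beside vehicle is poorly known. Leaving out DOS replicate 1, DOS replicate 4 or DOM replicate 2 left 2 members higher in each case, and the calls of Thbs1, Col5a2, Col4a1 and Col4a2 were lost each time. Thbs1 and Col5a2 also lost their calls without DOM replicate 3, and Thbs1, Col4a1 and Col4a2 without DOM replicate 4. The calls of Thbs1 and Thbs2 were lost with all 6 treatment groups in 1 fit, and with replicate number as a block the collagens Col4a1 and Col4a2 had adjusted p-values of 0.0539 and 0.0595.

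Of 13 contractile genes 5 fell and none rose, while 1 was higher with quantile normalization or without DOS replicate 3 and 2 with normexp background correction. Cnn1, calponin of smooth muscle, was at -0.79, -1.06, -0.75 and -1.30 with DOM, 1.22, 1.05 and 0.87 with DOS and -0.08 to 0.49 with vehicle. Vehicle thus stood between the compounds, with DOS minus DMSO at 0.81 (95% interval 0.46 to 1.16). The same order held for the means of Tagln (DOM minus DOS -0.89) and Actg2 (-0.81), where DOS stood above vehicle by 0.71 and 0.65. Ccn2 (-1.59) and Ankrd1 (-1.44), outputs of mechanical signalling, fell as well. The count was 3 without DOS replicate 1 or DOM replicate 2, where the calls of Ccn2 and Actg2 were lost. Ccn2 also lost its call without DOM replicate 3 or 4 or DOS replicate 4, and Actg2 without DOS replicate 3.

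Cnn1, Tagln and Acta2 also mark peritubular myoid cells, the muscle-like neighbours of Sertoli cells. Of 5 myoid markers 3 were tested and 2 fell, and Myh11 and Des were not well above background on any of the 7 arrays. The summed linear level of the 5 was 118 to 158 with DOM, 203 to 251 with DOS and 116 to 149 with vehicle. The part of such cells in the result was not tested. Cyp17a1, a steroidogenic enzyme of Leydig cells and the 1 tested of 7 Leydig cell markers, was well above background on all 7 arrays, at 3.04, 3.58, 3.44 and 3.36 with DOM and at 3.82, 3.86 and 3.91 with DOS. The groups did not overlap, but the difference of -0.51 ± 0.14 (SE, limma adjusted p = 0.038) was under 1.5-fold and not called.

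Of the 14 tested Sertoli cell markers 2 rose and 3 fell, while 6.04% of all tested genes were higher and 7.46% lower. The inhibin subunit genes Inhbb (1.16) and Inha (0.69) rose, and Sox9, the factor that sets Sertoli fate (-0.91), Clu (-0.92) and Dhh (-0.59) fell. With normexp background correction the calls of Sox9 (-0.36), Clu (-0.34), Inha (0.35) and Dhh (-0.47) were lost. Sox9 was dim, with DOM levels of -4.34 to -3.64 and DOS levels of -3.33 to -2.98, and only 2 of 4 DOM arrays were well above background. Clu was well above background on 1 of 4 DOM arrays. Both passed the filter through DOS, so the sizes of their differences are uncertain. The summed linear level of the Sertoli markers was 64.2 to 86.7 with DOM, 35.8 to 56.5 with DOS and 32.1 to 43.0 with vehicle. Such a sum is weighted to the brightest members. The median difference of the 14 tested markers was 0.06, with 8 above 0 and 6 below. The part of the shift in the sum in the other results was not tested. The 5 calls were fragile: leaving out DOS replicate 1 or DOS replicate 4 left 1 of the 5, the call of Inhbb was lost without any single array other than DOM replicate 1 or DOS replicate 3 and that of Dhh without any other than DOM replicate 1, and with replicate number as a block Inha and Dhh had adjusted p-values of 0.0539 and 0.0785.

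Of 17 genes under growth factor feedback 3 fell (17.6%, against 7.46% of all tested genes). They were Ccnd1, the G1 cyclin (-1.39 ± 0.26), and the ETS factors Etv4 (-1.28) and Etv5 (-1.0). Of 21 genes of glycolysis and lactate export 4 fell (19%). Hk2, the inducible hexokinase, was lower by 1.36 ± 0.16, Pfkp by 0.89, Pgk1 by 0.81 and Ldha, which makes lactate, by 0.67. The calls of Pgk1 and Ldha were lost with quantile normalization, and that of Ldha with normexp background correction too.

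**Figure D3:**
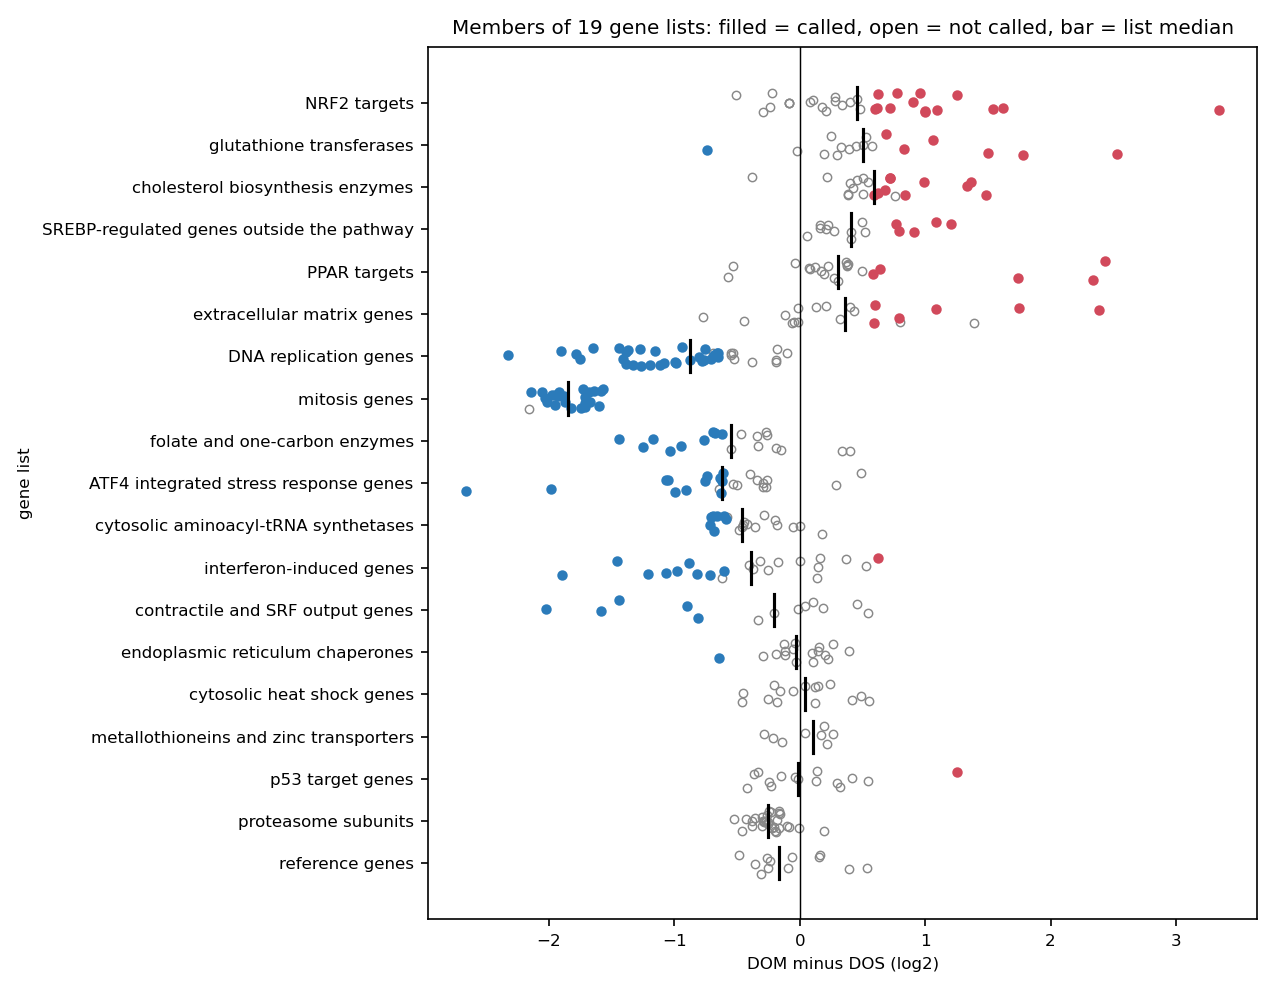
Each point is 1 tested member of a gene list, the x axis is the log2 difference DOM minus DOS, filled points are called genes and open points are not, and the bar marks the median of the list. The mitosis genes stand together at -2.15 to -1.57, while the lists of chaperones, heat shock genes, zinc genes and p53 targets lie around 0.

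In other stress lists few members were called. Over all tested genes 7.46% were lower and 6.04% higher, so low counts in lists this short do not set them apart. Of 17 endoplasmic reticulum chaperones 1 fell, Hspa5 (-0.65), whose call was lost without DOS replicate 4, with quantile normalization (-0.38) and with normexp background correction (-0.53), and for 14 the interval lay within 1.5-fold. None of 15 cytosolic heat shock genes was called. Hsph1 differed by 0.55 (95% interval 0.21 to 0.89), short of the 1.5-fold limit, and was called with slide as a block (0.69), quantile normalization (0.63), the other percentile (0.59), normexp background correction (0.61) and without DOM replicate 3 (0.65). With slide as a block 2 members of this list were higher. Hsp90aa1 differed by 0.04 (-0.22 to 0.30). None of 8 genes of metallothioneins and zinc transport was called, with Mt1 at 0.20 (-0.20 to 0.59) and Mt2 at 0.17 (-0.16 to 0.51). The medians of these 3 lists were -0.03, 0.04 and 0.11, and each changed sign under another setting.

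Of 15 p53 target genes 1 rose, Trp53inp1 (1.25 ± 0.15), which promotes cell death and autophagy. This share of 6.67% was near the 6.04% of all tested genes that were higher. Cdkn1a, the arrest gene p21, was at 0.11, 0.06, 0.09 and 0.29 with DOM and 0.21, 0.16 and 0.07 with DOS, and these overlapped. Its difference of -0.01 had a 95% interval of -0.25 to 0.23, well within 1.5-fold, and its sign was positive under 6 other settings. Trp53 differed by -0.23 (-0.70 to 0.23) and Sesn1 by 0.54, and neither was called. Sesn1 was called with slide as a block (0.66) and without DOM replicate 3 or DOS replicate 4, and the list then had 2 higher members. Of 5 tested genes of the aryl hydrocarbon receptor 2 rose, Nqo1 and Aldh3a1 (0.60), which are members of the NRF2 list too, and the call of Aldh3a1 was lost without any single array other than DOM replicate 1. Ahr differed by 0.30 (-0.24 to 0.84), and Cyp1a1 and Cyp1b1 were not well above background on any array. None of 31 proteasome subunits was called, with a median of -0.25 (-0.08 with quantile normalization), and none of 12 common reference genes was. In the reference list 1 gene was higher with quantile normalization, with normexp background correction and without DOM replicate 3. Without DOM replicate 1 that list had 1 lower gene.

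Some called genes were measured with 1 compound only. A limit is given for these, which sets the mean of the brighter group against, on each array of the dimmer group, the lowest signal that counted as well above background or the signal of the probe itself where that was higher. With DOM Hdac9, a histone deacetylase, was at least 3.64-fold higher, Tmem217 at least 3.27-fold, Slc16a6, a monocarboxylate carrier, at least 3.20-fold and Gtf2a1l, a germ cell form of a general transcription factor, at least 2.69-fold. With DOM Saa3 was at least 6.06-fold lower, Spopfm2 at least 3.05-fold, Gm4567 at least 3.04-fold and Trem3, a myeloid receptor, at least 3.0-fold. These genes passed the filter through the brighter group alone, so their p-values are not given. The limits hold only for the processed signal as deposited. With normexp background correction the log2 differences were 0.40, 0.47, 0.38 and 0.33 for the 4 higher genes and -0.99, -0.60, -0.58 and -0.81 for the 4 lower ones, all smaller than the limits, and Hdac9, Tmem217, Slc16a6, Gtf2a1l and Gm4567 were not called. Gtf2a1l also lost its call without DOS replicate 1 or 4 or DOM replicate 4.

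The array values of the genes that the study also measured by qPCR were as follows. Pdk4, Angptl4, Gsta4 and Mvd were called, as described. Pmvk and Fdps, both of the mevalonate arm, differed by 0.50 (95% interval -0.02 to 1.03) and 0.40 (0.12 to 0.68), with adjusted p-values of 0.156 and 0.0505. Fdps was called with quantile normalization (0.65) and Pmvk with normexp background correction (0.60). Mapk12 differed by 0.11 (-0.20 to 0.41), Mras by -0.27 (-0.55 to 0.02) and Egfr by -0.41 (-0.71 to -0.11). Hprt, which the study used to normalize its qPCR values, differed by -0.49 (-0.83 to -0.14) and was not called. It was called, as lower with DOM, without DOM replicate 1.

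Both compounds were present on slide 1 (DOM replicates 1 and 2, DOS replicate 1) and on slide 3 (DOM replicate 4, DOS replicates 3 and 4), while DOM replicate 3 was alone on slide 2. With slide as a block 1983 genes were called. Within slides 1 and 3 the median difference was 0.57 and 0.51 for the NRF2 targets, 0.42 and 0.69 for the cholesterol enzymes, -1.07 and -0.99 for the replication genes, -1.93 and -2.38 for the mitosis genes and -0.55 and -0.44 for the ATF4 genes. With slide as a block these medians were 0.54, 0.56, -1.02, -2.14 and -0.51.

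Without the 3 arrays with measures out of range (2 against 2), 14 mitosis genes, 7 replication genes, 3 folate enzymes and 2 ATF4 genes were lower, and 2 NRF2 genes, 2 PPAR targets, 1 glutathione transferase and 0 cholesterol enzymes were higher. The medians of these lists, in the same order, were then -1.83, -0.90, -0.49, -0.61, 0.43, 0.33, 0.57 and 0.63. In that fit 1 interferon gene and 1 contractile gene were lower, and no member of the matrix, SREBP, synthetase, glycolysis, growth factor or Sertoli lists was called. With no filter on dim probes 17 mitosis genes, 12 replication genes, 5 folate enzymes, 3 ATF4 genes and 4 interferon genes were lower, and 7 NRF2 genes, 4 glutathione transferases, 3 PPAR targets, 3 cholesterol enzymes and 1 matrix gene were higher.

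**Figure D4:**
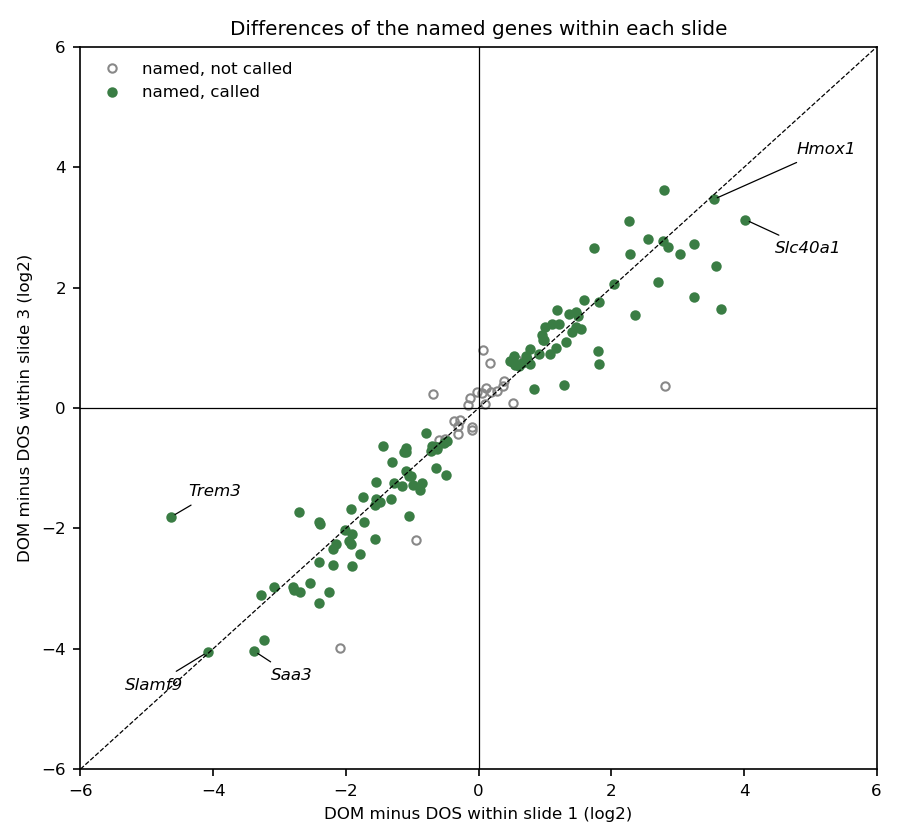
Each point is a gene named in the text, with its DOM minus DOS difference (log2) within slide 1 on the x axis and within slide 3 on the y axis. Filled points are called genes, open points are not, and the dashed line marks equal values. The filled points lie in the 2 quadrants of equal sign, which is nearly fixed by the choice, since the genes were called from these same arrays.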

How the data were processed

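RNA from TM4 cells was measured on Agilent 1-colour mouse arrays. The authors extracted the spots with Agilent Feature Extraction and deposited, per array, the background-subtracted processed signal as an intensity. Their normalized table, deposited on the log2 scale after a shift to the 75th percentile in GeneSpring and baseline centring, was an alternative only. No build was used for array positions. Here the log2 processed intensity (floor of 1) minus each array's 75th percentile was taken, and replicate spots were averaged per probe without control or outlier spots. Of 55681 probes 26582 were named through RefSeq accessions and 29099 were not. A probe was tested (24130 were) if every array of DOM or of DOS had it well above background and no lower than the 20th percentile. DOM and DOS arrays were fitted with limma 3.58.1 (lmFit, eBayes) in R 4.3.3 with Benjamini-Hochberg adjustment over those probes, and a gene was represented by its brightest probe and called at an adjusted p below 0.05 and over 1.5-fold. The fit was also run on simulated data with independent normal noise on each probe. It called 61.7% of planted log2 changes of 1 and 95.1% of planted log2 changes of 2. No slide or array-wide effect was simulated. Figures were drawn with matplotlib 3.10.9.

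The comparison, gene lists and named genes were chosen with earlier results of these data known. The naming rule took the 10 largest rises and falls among called, fully measured, non-overlapping genes, the 4 largest bounds each way, the genes of the study's qPCR, and of each list up to 4 members with the largest and 1 with the smallest absolute difference with the pathway's regulators. Members named beyond that rule, including Abcc1, Abcc4, Srxn1, Txnrd1, Gclc, Slc7a11, Gstt1, Hmgcs1, Lbr, Ucp2, Cdc6, Pcna, Mki67, H3c15, H2bc4, H1f2, Ddit3, Stat2, Cxcl1, Col5a2, Col4a1, Col4a2, Actg2, Inha, Dhh, Mt1 and Mt2, were chosen after their values were seen. Some list members are counted but not reported here by name.

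The arrays lay on 3 slides. Deviations from the group means correlated at 0.397, 0.100 and 0.196 between DOM and DOS arrays of the same number (1, 3 and 4). DOS replicate 3 correlated more with DOM replicate 4 (0.181) and DOM replicate 2 (0.129) than with DOM replicate 3. Numbers 1 and 4 also share a slide, so whether the numbers pair the samples is not settled. Such a pairing would come from the values and not from the labels. Alternatives were quantile normalization, another percentile, normexp background correction (offset 50), other filters, a block for slide or for replicate number, a joint fit of all 6 groups, outlier spots retained, 1 probe per gene, a variance trend, the authors' table and each array left out. Leaving out the 3 arrays with measures out of range was added after seeing the data.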

Additional observations from a re-analysis of the deposited data

Results flagged for a closer look

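Among the 136 named genes, 2 had 1 DOM array far from the other DOM arrays by Dixon's ratio of gap to range taken at its 95% limit. Chance alone passes this limit in about 5% of groups. Ccn2, an output of mechanical signalling, was at 5.07 on DOM replicate 1 and at 3.66 to 3.84 on the others (ratio 0.874). Hk2, the inducible hexokinase, was at -0.64 on DOM replicate 2 and at -0.24 to -0.21 on the others (ratio 0.937). All 4 DOM arrays lay below all 3 DOS arrays for both genes.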

How the results depend on the processing

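Of the 109 called genes named, 29 kept their call under all 20 alternatives and none changed sign, and 86 kept it on leaving out any 1 of the 7 arrays. With no filter on dim probes 367 genes were called, 122 higher and 245 lower. Without the 3 arrays with measures out of range, an alternative chosen after seeing the data, 199 were called, 43 higher and 156 lower, and 2433 genes had an interval within 1.5-fold. Leaving out 1 array gave 1100 to 1676 called genes, 459 to 740 higher and 641 to 972 lower. The distance between group means was 108.6 with quantile normalization, 66.2 over probes well above background on all arrays and 68.4 with normexp, each with an exact permutation p of 0.0286, and 112.1 (p = 0.143) in the authors' table. Leaving out 1 array gave distances of 113.1 to 133.4. With replicate number as a block, a pairing that the values do not settle, 1629 genes were called, 723 higher and 906 lower. This block ended the calls of Atf4, Col4a1, Col4a2, Dhh, Inha, Lars, Stat2 and Ucp2, gave calls to Aspn (1.24) and Rhox5 (-1.12), and changed no other call among the named genes. Signs turned only for uncalled genes. Gins3 was at 0.10 with quantile normalization. Cdkn1a was at 0.025 with the percentile over detected probes, 0.021 with slide as a block and 0.013 with the replicate block. On leaving out 1 array Cdkn1a ranged from -0.062 to 0.019 (above 0 without DOS replicate 1, DOM replicate 2 or DOM replicate 3), Hsp90aa1 from -0.017 to 0.087 (below 0 without DOM replicate 1 or DOS replicate 3), Slc7a11 from -0.238 to 0.027 (above 0 without DOM replicate 4) and Mapk12 from -0.00728 to 0.203 (below 0 without DOS replicate 4). Some alternatives used fewer arrays or tested more probes, and their counts did not all fall. Leaving out DOM replicate 1 gave 1676 called genes, against 1611 with all 7 arrays. Why the counts differed between alternatives was not tested. Dim probes set the limit of measurement.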
